A study of Danio rerio with 4 samples.

Results

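The nuclear estrogen receptors and the genes of vitellogenesis were followed in zebrafish liver after cadmium exposure. Vitellogenesis is the making of yolk protein by the liver of egg-laying females. Estradiol from the ovary enters hepatocytes and binds estrogen receptors, which act as ligand-dependent transcription factors on the vitellogenin genes. In fish, the receptor gene esr1 is itself a target of estradiol, and hepatic vitellogenin is widely used as a marker of estrogen exposure. The vitellogenins are secreted, carried in blood to the ovary and taken up by growing oocytes.

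Members were the probes that the platform's annotation assigned to esr1, esr2a, esr2b, nots, fam20cl, vtg2, vtg3, vtg4 or vtg5. All 9 genes were found, on 13 of 43603 probes, with 2 probes each for esr2a, esr2b, vtg3 and vtg4. No probe carried the name vtg1, and no filter on low values was applied, so every member is described. For the 23534 probes whose gene ID was in the RefSeq table used here, the annotation names were those of that table. They may thus be later than the array's design. Vitellogenin genes are close in sequence, so a probe named for one of them may also have bound transcripts of another.

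The series was a trial experiment for a custom Agilent array, with 4 two-colour arrays of liver RNA from day 4. Both cadmium RNAs (replicates 1 and 2) came from fish given 5 µM cadmium, and both control RNAs (replicates 2 and 3) from fish given 0 µM. The dose unit is that of the design text, since the sample labels print a temperature unit beside the same number. The labels give no sex, age, strain or body weight of the fish, nor do they tell a single animal from a pool. Each RNA was hybridised on 2 arrays, once with Cy5 and once with Cy3, so that the arrays closed a loop. Cadmium replicate 1 was set against control replicate 2 on array 1 and against control replicate 3 on array 2. Cadmium replicate 2 was set against control replicate 3 on array 3 and against control replicate 2 on array 4.

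The deposited log2 ratios were turned to cadmium over control, taking them as Cy5 over Cy3. That direction is likely but not stated, and the opposite reading would turn every sign and every order of RNAs. The ratios were then solved for a log2 value in each RNA, relative to the mean of the 4 RNAs, and for a dye effect. Ratios give no level, so neither the presence of hepatocyte markers nor the order of expression among genes could be read from them. Arrays 3 and 4, which carried cadmium replicate 2, had standard deviations of 0.388 and 0.353 over all probes, against 0.198 and 0.230 on arrays 1 and 2.

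None of the 9 genes passed the test of cadmium against control livers. In limma, fitted to all genes with 2 RNAs per group, 0 of 15554 genes passed a Benjamini-Hochberg adjusted p of 0.05, which is 0% of those tested. The adjusted p was 0.9998 for each of the 9. By probe, 0 of the 13 passed, as did 0 of all 43603. At an unadjusted p under 0.05 there was 1 member, nots, where 2.02% of all genes (314) reached that mark. Of the 9 genes, 7 had a log2 difference below 0 and 2 above it, with a median of -0.19, whereas 43.1% of all genes were below 0 and their median was 0.02. Of all genes 56.9% were above 0. Were the ratio's direction turned, the members' counts and the shares of all genes would turn together. In 7 of the 9 genes cadmium replicate 2 was the lowest of the 4 RNAs, which was the case for 29.4% of all genes, while 38.7% had their highest value there. Both counts of 7 include vtg4, whose 2 probes ran in opposite directions, and esr2a, which varied little. The gap between the cadmium RNAs exceeded that between the control RNAs in 8 of the 9, against 63.8% of all genes.

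**Figure D1:**
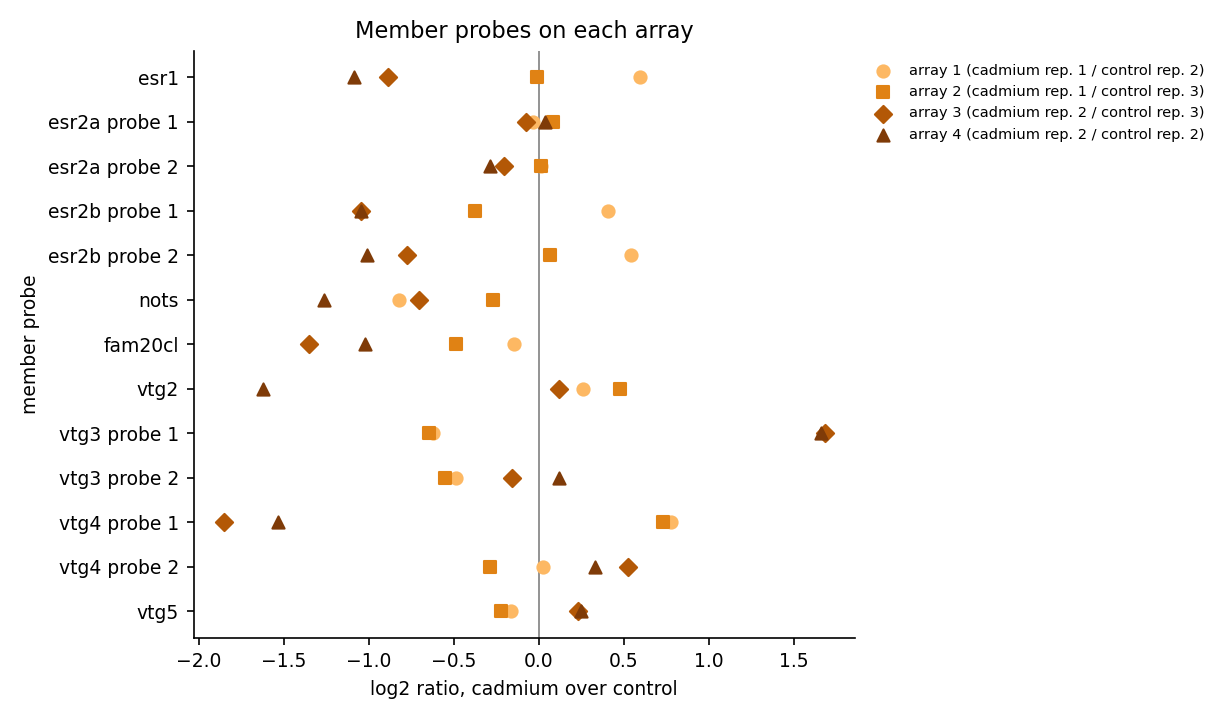
Log2 ratio of cadmium over control (x axis) for each of the 13 member probes (y axis) on the 4 arrays, with 1 mark per array. The marks of nots and fam20cl lie left of 0 on every array, while for esr1, esr2b and the first probes of vtg3 and vtg4 the arrays of cadmium replicate 1 and of cadmium replicate 2 lie far apart.

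Among the receptors, the values of esr1 and esr2b lay far apart in the 2 cadmium RNAs and those of esr2a close together. For esr1 (Entrez Gene 259252), which encodes estrogen receptor alpha, the log2 ratio was 0.59 and -0.014 on the arrays of cadmium replicate 1 and -0.89 and -1.09 on those of cadmium replicate 2. Its RNA values were 0.46 and -0.81 in cadmium replicates 1 and 2, against 0.07 and 0.28 in control replicates 2 and 3. The cadmium RNAs were thus the highest and the lowest of the 4, and the groups overlapped. On array 2 itself cadmium replicate 1 lay just below control replicate 3. It became the highest RNA once the solved dye effect of -0.20 was removed, and 3.79% of all probes had one as large in size. For a single probe such an effect cannot be told apart from noise on an array. The log2 difference was -0.35 ± 0.47 (SE, 2 RNAs per group), with a 95% interval from -1.66 to 0.97. In bulk liver RNA, fewer cells of a type and less RNA per cell cannot be told apart.

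The gene esr2b (Entrez Gene 317733) encodes one of the zebrafish pair of beta-type estrogen receptors. Its first probe had log2 ratios of 0.41 and -0.38 on the arrays of cadmium replicate 1 and -1.05 and -1.05 on those of cadmium replicate 2. Its second probe had 0.54 and 0.064 on the arrays of cadmium replicate 1 and -0.78 and -1.01 on those of cadmium replicate 2. As a gene it had RNA values of 0.36 and -0.77 in cadmium replicates 1 and 2, against 0.08 and 0.33 in control replicates 2 and 3. Its 2 probes gave the same order within the cadmium group, at 0.27 and -0.79 for the first probe and 0.45 and -0.75 for the second in cadmium replicates 1 and 2. Cadmium minus control was -0.41 ± 0.42 on the log2 scale (SE, 2 RNAs per group). As a gene, esr2b was close to the course of esr1, with cadmium replicate 2 lowest and both control RNAs between the cadmium RNAs. For esr2b too, array 2 had cadmium replicate 1 below control replicate 3, at -0.16, before a dye effect of -0.19 was removed. In its first probe, however, control replicate 3 was the highest RNA at 0.45, above cadmium replicate 1.

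In contrast, esr2a (Entrez Gene 317734), the other beta-type receptor gene, varied little. On arrays 1 to 4 its first probe had log2 ratios of -0.034, 0.081, -0.075 and 0.037, and its second 0.013, 0.012, -0.21 and -0.29. The gene's RNA values were 0.047 and -0.10 in cadmium replicates 1 and 2, against 0.039 and 0.018 in control replicates 2 and 3. The range over the 4 RNAs was 0.15, and 73.1% of all genes had a range at least as wide. Over the gene, the log2 difference was -0.057 ± 0.097 (SE, 2 RNAs per group), with a 95% interval from -0.33 to 0.21. The files give no signal per spot, so whether esr2a was above background on these arrays is unknown.

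The gap between the cadmium RNAs, taken as replicate 2 minus replicate 1, was -1.28 for esr1, -1.13 for esr2b and -0.15 for esr2a. A gap at least as large in size was found in 2.19%, 3.17% and 51.5% of all genes for these 3 receptors. The control gap, replicate 3 minus replicate 2, was 0.21 for esr1 and 0.26 for esr2b. For both genes the difference from control therefore turned with the choice of cadmium RNA. Without cadmium replicate 2, esr1 stood at 0.29 and esr2b at 0.16. Without cadmium replicate 1 they stood at -0.99 and -0.97, with adjusted p in limma of 0.0177 and 0.0203 when cadmium replicate 2 alone stood for the treatment and was assumed to vary like the controls. In that setting 9.36% of all genes passed.

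**Figure D2:**
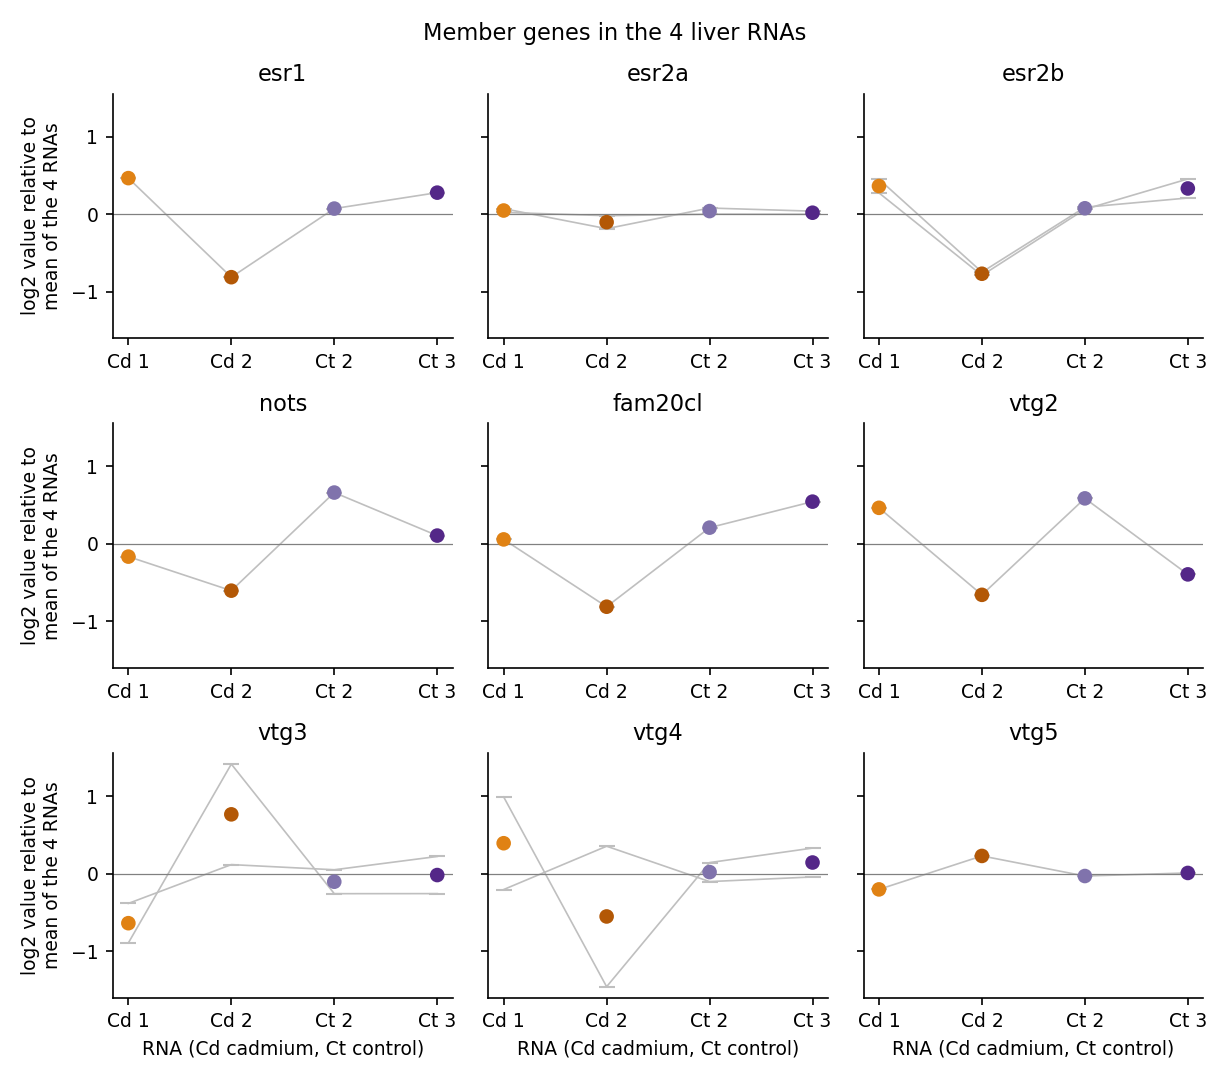
Log2 value relative to the mean of the 4 RNAs (y axis) for each member gene in cadmium replicates 1 and 2 (Cd) and control replicates 2 and 3 (Ct). Coloured points are gene values, and grey lines join the values of 1 probe. In the gene values of esr1 and esr2b the cadmium RNAs lie on either side of the control RNAs, and esr2a stays near 0. The 2 probes of vtg3 and of vtg4 part from each other in cadmium replicate 2.

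Beside the vitellogenins stood a protease gene and a kinase-family gene, nots and fam20cl. They were the members with both cadmium RNAs below both control RNAs, a separation that 10.2% of all genes showed in that direction and 11.7% in the opposite one. They were also the members lower on all 4 arrays, as were 6.9% of all genes, with 7.99% higher on all 4. The gene nots (Entrez Gene 114367) encodes nothepsin, an aspartic protease described in zebrafish liver as specific to females. Its log2 ratio was -0.82 and -0.27 on the arrays of cadmium replicate 1 and -0.71 and -1.27 on those of cadmium replicate 2. The RNA values were -0.16 and -0.60 in cadmium replicates 1 and 2, against 0.66 and 0.11 in control replicates 2 and 3. The control RNAs differed from each other by 0.56 in size and the cadmium RNAs by 0.44, so nots was the member whose control gap was the wider. A control gap at least as large in size was found in 2.31% of all genes. Its log2 difference was -0.77 ± 0.27 (SE, 2 RNAs per group), with an unadjusted p of 0.0454 in limma and a 95% interval from -1.51 to -0.025. It stayed below 0 with any 1 RNA left out, between -1.05 and -0.49.

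The gene fam20cl (Entrez Gene 100007251) is named for its likeness to Fam20C, a kinase of the secretory pathway that phosphorylates secreted proteins. Its log2 ratio was -0.15 and -0.49 on the arrays of cadmium replicate 1 and -1.35 and -1.02 on those of cadmium replicate 2. The RNA values were 0.057 and -0.81 in cadmium replicates 1 and 2, against 0.21 and 0.54 in control replicates 2 and 3. Cadmium replicate 2 thus lay far below the other 3 RNAs, and cadmium replicate 1 close under control replicate 2. For fam20cl the log2 difference was -0.75 ± 0.34 (SE, 2 RNAs per group), with an unadjusted p of 0.0939 in limma. Without cadmium replicate 2 it was -0.32. Without cadmium replicate 1, where cadmium replicate 2 alone stood for the treatment, it was -1.19.

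The vitellogenin genes had no common direction. Averaged over vtg2, vtg3, vtg4 and vtg5, the values were 0.0030 and -0.055 in cadmium replicates 1 and 2, against 0.12 and -0.066 in control replicates 2 and 3. This mean near 0 hid single probes that ran in opposite directions. In the RefSeq table of the assembly GRCz12tu, vtg5, vtg4, vtg6, vtg7, vtg2 and vtg8 follow each other in this order on chromosome 22, with 2 protein-coding genes between vtg5 and vtg4 and 0 between the others. On the same chromosome fam20cl comes next, after 5 further protein-coding genes, whereas vtg3 lies apart on chromosome 11.

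The gene vtg3 (Entrez Gene 30518) encodes a vitellogenin that lacks the phosphate-carrying phosvitin domain of the typical forms. Its first probe (A_15_P179866) had log2 ratios of -0.62 and -0.65 on the arrays of cadmium replicate 1 and 1.68 and 1.66 on those of cadmium replicate 2. These gave RNA values of -0.89 and 1.41 in cadmium replicates 1 and 2, against -0.26 and -0.26 in control replicates 2 and 3. Both control RNAs agreed within 0.00074, and the cadmium RNAs lay on either side of them, 2.31 apart. A gap of at least that size was found in 0.264% of all probes. The second probe (A_15_P237656) had log2 ratios of -0.49, -0.55, -0.16 and 0.12 on arrays 1 to 4. It had RNA values of -0.39 and 0.12 in cadmium replicates 1 and 2, against 0.049 and 0.22 in control replicates 2 and 3. The probes shared the order within the cadmium group but not its size, and their log2 differences from control were 0.52 and -0.27. For the gene as the mean of both probes, the log2 difference was 0.12 ± 0.51 (SE, 2 RNAs per group), and it was -0.085 after quantile normalization of the arrays. It was -0.58 without cadmium replicate 2, and 0.83 without cadmium replicate 1, where cadmium replicate 2 alone stood for the treatment. That last value rested on the first probe, at 1.67, since the second was at -0.019.

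The probes of vtg4 (Entrez Gene 678536), a phosvitin-bearing vitellogenin gene, ran against each other. The first probe (A_15_P101465) had log2 ratios of 0.78 and 0.73 on the arrays of cadmium replicate 1 and -1.86 and -1.53 on those of cadmium replicate 2. These gave RNA values of 0.99 and -1.46 in cadmium replicates 1 and 2, against 0.14 and 0.33 in control replicates 2 and 3. The gap of -2.45 between the cadmium RNAs was the widest of the 13 probes, and 0.167% of all probes had one at least as large in size. The second probe (A_15_P103847) had log2 ratios of 0.025, -0.29, 0.52 and 0.33 on arrays 1 to 4. It had RNA values of -0.21 and 0.35 in cadmium replicates 1 and 2, against -0.10 and -0.044 in control replicates 2 and 3. One probe was thus lowest in cadmium replicate 2, where the other was highest. The annotation gives a transcript accession for the second probe and none for the first. Which of them reports vtg4 transcripts was not tested, and the gene's mean (-0.16 ± 0.35, SE, 2 RNAs per group) describes neither. Without cadmium replicate 1 the mean was -0.63, from probes at -1.69 and 0.43, and without cadmium replicate 2 it was 0.31.

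For vtg2 (Entrez Gene 559931) the log2 ratio was 0.26, 0.48 and 0.12 on arrays 1 to 3, and -1.62 on array 4. The RNA values were 0.46 and -0.66 in cadmium replicates 1 and 2, against 0.59 and -0.39 in control replicates 2 and 3. Each group thus held 1 high and 1 low RNA, and the control gap of -0.98 was one that 0.495% of all genes reached in size. The loop closed less well here than for most probes. The dye effect was -0.38, and 0.369% of all probes had one as large in size. The log2 difference was -0.19 ± 0.54 (SE, 2 RNAs per group), and it was 0.30 without control replicate 2 and 0.37 without cadmium replicate 2.

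For vtg5 (Entrez Gene 64260) the log2 ratio was -0.16, -0.22, 0.23 and 0.25 on arrays 1 to 4. The RNA values were -0.20 and 0.23 in cadmium replicates 1 and 2, against -0.032 and 0.0081 in control replicates 2 and 3. Both control RNAs lay between the cadmium RNAs, as with the second probe of vtg4. The log2 difference was 0.023 ± 0.17 (SE, 2 RNAs per group), which was -0.0034 after scaling of the arrays, -0.0099 after quantile normalization and -0.19 without cadmium replicate 2. The related gene vtg8, no member and picked out after its values were seen, followed the first probe of vtg4 in its order. Its values were 0.54 and -0.62 in cadmium replicates 1 and 2, against -0.038 and 0.12 in control replicates 2 and 3. The same order of RNAs was found in esr1 and in esr2b as a gene, so it was not particular to vitellogenin genes. In both of these, array 2 itself had cadmium replicate 1 below control replicate 3, and the first probe of esr2b had control replicate 3 highest.

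**Figure D3:**
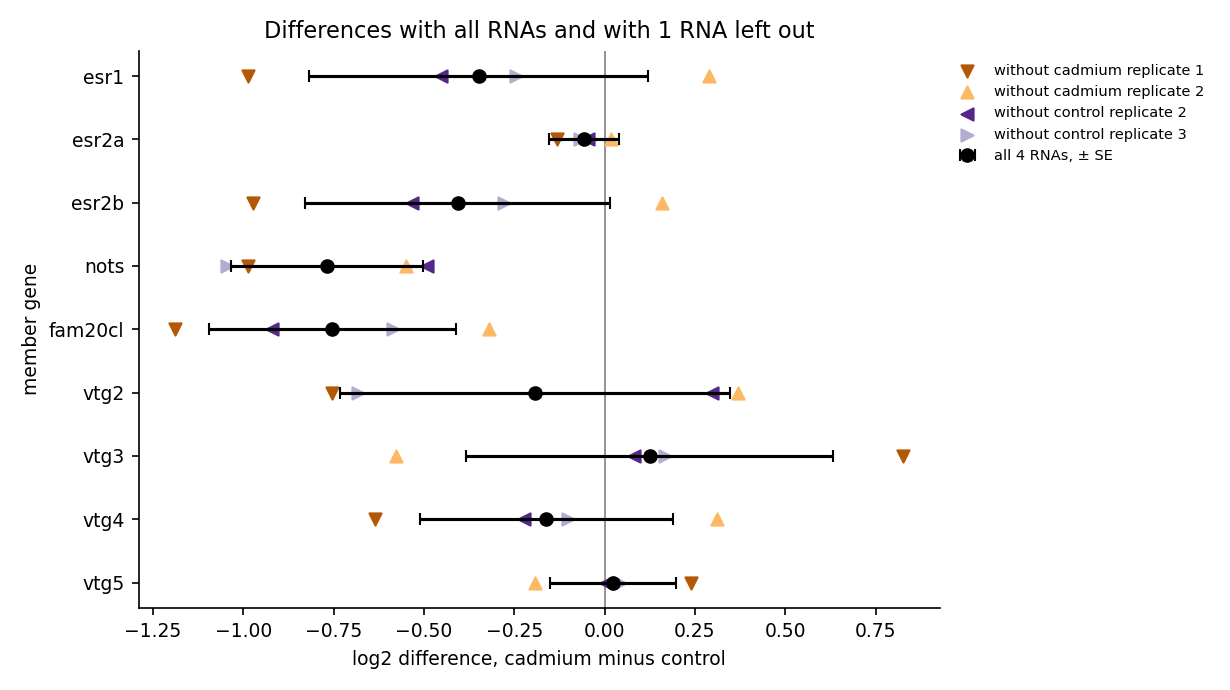
Log2 difference, cadmium minus control (x axis), for each member gene (y axis) with all 4 RNAs (black points, bars are SE) and with 1 RNA left out (coloured triangles). Only nots and fam20cl keep all 5 values below 0. For esr1, esr2a, esr2b, vtg2, vtg3, vtg4 and vtg5 leaving out cadmium replicate 1 or 2 moves the value to opposite sides of 0.

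Markers of ovary, the tissue that vitellogenin feeds, differed between the same RNAs. Of the 23 measured markers, 21 had their highest value in cadmium replicate 2, and for 21 the lowest was in cadmium replicate 1. Of all 15554 genes, 6018 (38.7%) were highest in cadmium replicate 2 and 4007 lowest in cadmium replicate 1. The medians of the ovary markers were -0.69 and 1.30 in cadmium replicates 1 and 2, against -0.41 and -0.13 in control replicates 2 and 3. Within the list, the egg envelope gene zp3 ran between -1.05 in cadmium replicate 1 and 1.94 in cadmium replicate 2. The range of the list was -1.05 to 0.095 in cadmium replicate 1 and -0.039 to 1.94 in cadmium replicate 2, against -0.72 to -0.00020 in control replicate 2 and -0.37 to 0.26 in control replicate 3. Both probes of vtg3, the second probe of vtg4 and vtg5 had the same order as these medians in the cadmium RNAs, and the other 9 probes the opposite one. The part of ovary RNA in any of these values was not tested.

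Hepatocyte markers had medians of 0.068 and -0.10 in cadmium replicates 1 and 2, against -0.021 and 0.035 in control replicates 2 and 3, over 19 genes. These medians lay within 0.2 of each other, but single genes spread further. Transthyretin (ttr), a carrier of thyroid hormone made by liver, was at 0.40 and -0.80 in cadmium replicates 1 and 2, against 0.35 and 0.049 in control replicates 2 and 3. The next widest, apoa1a, was at 0.49 and -0.36 in cadmium replicates 1 and 2, against 0.14 and -0.27 in control replicates 2 and 3. Of the 19, 11 were lower in cadmium replicate 2 than in cadmium replicate 1. In hpxa both cadmium RNAs, at 0.34 and 0.14, were above both control RNAs, at -0.12 and -0.36. For c3a.1 the values were -0.27 and -0.22 in the cadmium RNAs, against 0.012 and 0.47 in the control RNAs. An unadjusted p under 0.05 in limma was reached by 2 of the 19 (10.5%), 1 higher (hpxa, 0.0267) and 1 lower. Of all genes 2.02% reached it. The lower gene was not c3a.1, which had an unadjusted p of 0.0592 in limma. Pancreas markers separated the control RNAs, with medians of 0.023 and 0.35 in cadmium replicates 1 and 2, against 0.66 and -0.86 in control replicates 2 and 3 over 14 genes. The part of pancreas RNA in the members' values was not tested.

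**Figure D4:**
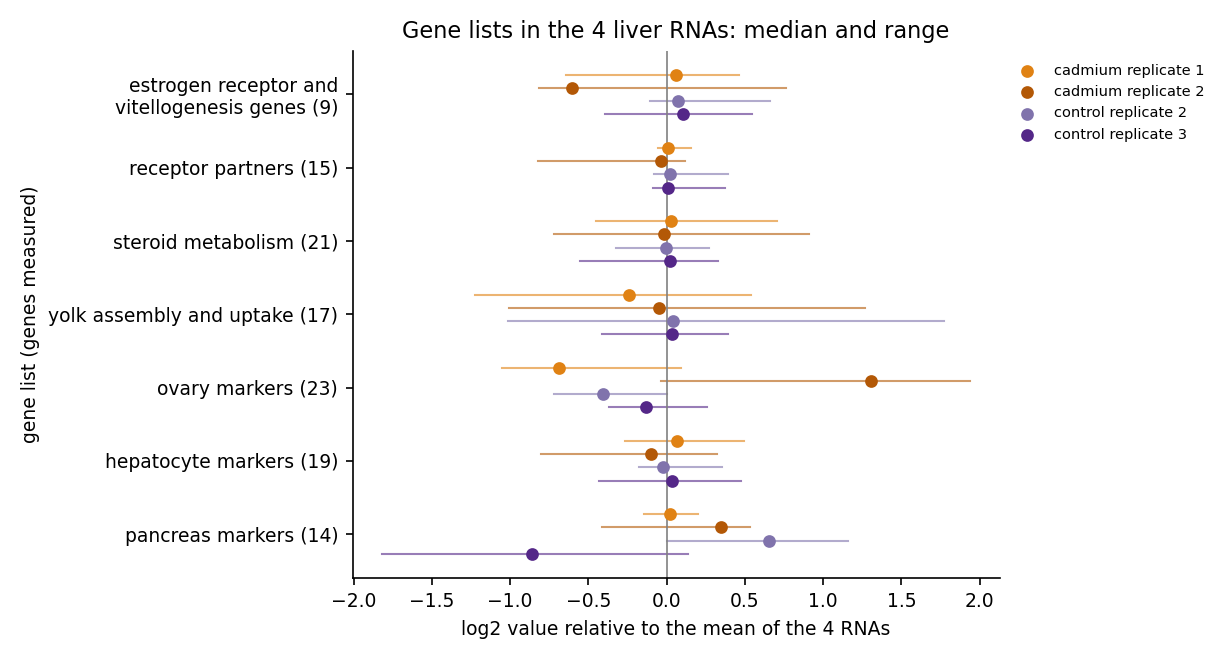
Median (points) and range (lines) of the log2 values relative to the mean of the 4 RNAs (x axis) for 7 gene lists (y axis, with the number of genes measured), by RNA. Cadmium replicate 2 has the lowest median of the estrogen receptor and vitellogenesis genes (-0.60) and the highest of the ovary markers (1.30).

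Other genes of the estrogen pathway were read from 3 lists by role. Of 15 measured receptor relatives, coregulators and pioneer factors, 4 were above 0 and 11 below, with a median of -0.014, and 0 passed the test. At an unadjusted p under 0.05 there were 0 in limma. The members with the largest moderated t were foxa2 (-0.36 ± 0.14), foxa3 (-0.76 ± 0.33), foxa1 (-0.15 ± 0.14) and esrra (0.081 ± 0.10; SE, 2 RNAs per group each). FoxA proteins open chromatin for estrogen receptors in mammalian cells and are general factors of liver identity. The values of foxa3 were 0.064 and -0.82 in cadmium replicates 1 and 2, against 0.39 and 0.37 in control replicates 2 and 3. Like fam20cl it thus had cadmium replicate 2 far below the other 3 RNAs.

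Among 21 measured genes of steroid synthesis, transport and clearance, 12 were above 0 and 9 below, with a median of 0.040. None passed in limma, with 0 at an unadjusted p under 0.05. Leading members were hsd17b12b (0.55 ± 0.32), a hydroxysteroid dehydrogenase family gene, and sult1st3 (0.41 ± 0.26) and sult1st5 (-0.33 ± 0.25), which encode cytosolic sulfotransferases. The gene star (-0.11 ± 0.08; SE, 2 RNAs per group each) encodes the carrier of cholesterol into mitochondria.

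The list of yolk precursor assembly, uptake and cleavage had 17 measured genes, 10 above 0 and 7 below, with a median of 0.032. None passed. An unadjusted p under 0.05 in limma was reached by 2.02% of all genes, 167 higher and 147 lower. In this list 2 genes (11.8%) reached it, both lower. These were apoeb (-0.61 ± 0.16), an apolipoprotein E gene, and ctsl.1 (-1.98 ± 0.56; SE, 2 RNAs per group each), a cathepsin L family gene. For ctsl.1 the RNA values were -0.97 and -1.004 in cadmium replicates 1 and 2, against 1.77 and 0.21 in control replicates 2 and 3. The cadmium RNAs were alike and the control RNAs were 1.56 apart. The other named members were furina (-0.40 ± 0.15), a proprotein convertase gene, and ctsba (0.91 ± 0.71), a cathepsin B gene. None of the medians of these 3 lists lay farther than 0.05 from the all-gene median of 0.02.

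The genes most like esr1 were named by the smallest Euclidean distance over the 4 RNA values among 14132 other genes with a gene name. They were the mitochondrially encoded ND3 (distance 0.063), mtf1 (0.077), which encodes the metal-responsive transcription factor, nr1h4 (0.12), the bile acid receptor gene, msi1a (0.14) and rin2a (0.15). Each of them has 1 probe. In mtf1 the values were 0.43 and -0.86 in cadmium replicates 1 and 2, against 0.091 and 0.33 in control replicates 2 and 3. With 4 RNAs the likeness is a description. For the vitellogenin mean, which was near 0 in every RNA, the same rule gave tyrp1b, rnf41l, nsd1b, ribc1 and adprhl1, all within 0.018 of it.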

How the data were processed

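The 4 arrays were measured from liver RNA labelled by version 5.7 of the Agilent two-colour protocol, per the labels. The authors deposited 1 log2 ratio per probe and array, 43603 probes with 0 missing values, made with limma (version not given), per the submitters' processing notes. Not given in the sources used here are the background correction, the normalization and the ratio's direction. The base was taken as 2 because the largest value, 6.14, would exceed a scanner's range in base 10. Column medians lay between -0.00045 and 0.0037, so the ratios appear centred. Arrays of one dye orientation, which share no RNA, correlated at -0.043 (arrays 1 and 3) and -0.22 (arrays 2 and 4) over all probes. Arrays of opposite orientation share an RNA. Their deposited ratios correlated at -0.66 for arrays 3 and 4 (cadmium replicate 2) and -0.17 for arrays 1 and 2 (cadmium replicate 1). The values were 0.062 for arrays 2 and 3 (control replicate 3) and 0.024 for arrays 1 and 4 (control replicate 2).

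The ratios were solved per probe for 3 RNA differences and 1 dye effect. This used up all 4 ratios, so noise on an array could not be told apart from a dye effect. Where an RNA was left out, this was done after the solving. The values of the other RNAs, and the gap between the controls, thus still rested on all 4 arrays. Genes were means over probes (15554 genes). Of the probes, 23717 had 1 gene symbol, 0 several and 19886 none. The gene IDs of 23534 probes were found in the RefSeq table, with 0 symbols changed. RNAs, not arrays, were the units of lmFit and eBayes in limma 3.58.1 under R 4.3.3. Tests were two-sided, p-values were adjusted by Benjamini-Hochberg over all genes or probes, and a gene had 2 residual and 1.91 prior degrees of freedom. The steps were tested on simulated data. Precision is limited by the number of RNAs, 2 per group, and a p-value reflects only the spread of these 4 RNAs, which may be technical. Replicate numbers shared between groups numbered 1, so no pairing was used.

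The members and the lists (receptor partners, steroid metabolism, yolk assembly and uptake, and markers of ovary, testis, liver, pancreas, intestine and red cells) were chosen with earlier results of these data known. Named were all members, per pathway list the 4 genes of largest moderated t, per marker list at most 4 of widest range, and 5 genes nearest to esr1 and to the vitellogenin mean. No sequences were used here.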

Additional observations from a re-analysis of the deposited data

How the results depend on the processing

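The count of genes and probes with an adjusted p under 0.05 in limma was 0, and 0 again when arrays were the units with the dye as a term, after scaling or quantile normalization, without the 25% of lowest variance and, for genes, with robust eBayes or the median over probes. When arrays were the units without such a term it was 2 genes and 3 probes, none of them a member. With 1 RNA left out it lay between 0 and 1456 genes and between 0 and 2523 probes. The higher counts were those without cadmium replicate 1, where cadmium replicate 2 alone stood for the treatment and was assumed to vary like the controls. Its values had a standard deviation of 0.29 over genes, against 0.15 and 0.16 in control replicates 2 and 3. In that setting esr1 was at -0.99, esr2b at -0.97 and fam20cl at -1.19. There vtg4 (-0.63) and vtg3 (0.83) were means of probes that disagree. Over alternatives that keep all 4 RNAs, 59 of 62 member gene values kept sign and side of the threshold. The exceptions were vtg5 after scaling (-0.0034) and after quantile normalization (-0.0099, also for its probe) and vtg3 after quantile normalization (-0.085). Quantile normalization also left esr1 at -0.15, esr2b at -0.24, vtg2 at -0.054 and vtg4 at -0.011, and scaling left vtg3 at 0.039 and vtg4 at -0.098. The variance filter removed 1 member gene, esr2a. Without 1 RNA at a time, esr1 lay between -0.99 and 0.29, esr2a between -0.13 and 0.018, esr2b between -0.97 and 0.16, vtg2 between -0.75 and 0.37, vtg3 between -0.58 and 0.83, vtg4 between -0.63 and 0.31 and vtg5 between -0.19 and 0.24. By probe, esr2a lay between -0.019 and 0.024 (first) and between -0.25 and 0.012 (second), esr2b between -1.05 and 0.016 and between -0.90 and 0.30, the first probe of vtg3 between -0.64 and 1.67, and vtg4 between -1.69 and 0.75 and between -0.13 and 0.43. Removing cadmium replicate 2 turned 7 of 9 genes, and the cause was not tested. No paired analysis was possible because cadmium and control share only 1 replicate number.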

Other observations

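Markers of the remaining tissues were read in the same way. The median range over the 4 RNAs was 1.13 for intestine markers. It was 0.27 for testis and 0.26 for red cell markers, near the 0.25 of all genes. Testis markers (10 genes) had medians of -0.017 and 0.083 in cadmium replicates 1 and 2, against -0.0041 and -0.025 in control replicates 2 and 3. Intestine markers (7 genes) had medians of -0.20 and 0.32 in cadmium replicates 1 and 2, against 0.31 and -0.096 in control replicates 2 and 3. The bile acid binding protein gene fabp6 spread most among them, at 0.83 and -1.94 in cadmium replicates 1 and 2, against 2.69 and -1.58 in control replicates 2 and 3. The next widest ran the other way in cadmium replicates 1 and 2: chia.1 (-1.74 and 1.67), vil1 (-0.96 and 0.67) and mep1a.1 (-0.20 and 0.32). Of the 7 genes, 2 were lower in cadmium replicate 2 than in cadmium replicate 1. Red cell markers (8 genes) had medians of 0.083 and -0.11 in cadmium replicates 1 and 2, against 0.074 and -0.054 in control replicates 2 and 3.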
